A study of Mus musculus with 21 samples.

Results

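*Ddx6* knockout (KO) mouse embryonic stem cells (ESCs) were compared with themselves: total RNA against newly made RNA from the same culture, to rank transcripts by turnover in cells without DDX6. The data taken are those labeled as *Ddx6* KO, which are 12 of the 21 samples, or 8 of the 14 libraries and 4 of the 7 cultures, with 2 cultures of clone 1 and 2 of clone 2. The other cultures were wild type and enter no comparison of turnover. The cells were V6.5 ESCs grown with LIF, 2 inhibitors (2i) and serum, and both KO clones came from CRISPR-Cas9 cutting with a single guide RNA against *Ddx6*. One clone carries an insertion of 1 nucleotide and the other a large deletion, so that each is a single line. Every culture, in both clones, received 500 µM 4-thiouridine (4sU) for 30 min, and its RNA was extracted once and then divided. One portion was depleted of rRNA and sequenced as total RNA, and from the other the biotinylated 4sU RNA was pulled down with streptavidin and sequenced. The cultures are separate samples in the labels, and nothing in them says how far apart they were grown, so the p values measure the spread between these samples.

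4sU is a uridine analog that cells build into RNA while it is being transcribed, so RNA caught after a short pulse is enriched for young molecules. A transcript that is made at a given rate and degraded slowly builds up in total RNA, whereas one that is degraded fast is rich in 4sU RNA and poor in total RNA, and the ratio of total RNA to 4sU RNA ranks genes by relative stability. DDX6 is an RNA helicase of the cytoplasm and of P-bodies that binds both the deadenylation and the decapping machinery and represses translation, including that of miRNA targets. The ratio is relative: it is centered by normalization on the bulk of genes, gives no half-life, and is written here as a log2 ratio, positive where a gene is higher in total RNA (slower turnover) and negative where it is higher in 4sU RNA (faster turnover).

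*Ddx6* itself was examined first in every KO library. The 4sU level was 240 and 245 CPM (counts scaled to a common library total) in the cultures of clone 1, and 175 and 155 in those of clone 2. In total RNA the levels were 59.6 and 70.7 CPM in clone 1 and 23.9 and 22.5 CPM in clone 2, all below the 314 to 363 CPM of the wild-type total RNA libraries, while wild-type 4sU libraries held 225 to 251 CPM. Within the KO cultures the *Ddx6* transcript was therefore low in total RNA and still made, with a log2 ratio of −2.27 ± 0.25 (SE, n = 4 cultures, adjusted p = 0.00226), and the 4 cultures lay at −2.0, −1.79, −2.83 and −2.76. The gene lies at chr9:44604892-44640731 on the plus strand of GRCm38.

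The 4sU libraries held 2945069 to 3570192 counts and the total RNA libraries 6039246 to 7369651, so that a count of 0 allows a level of up to 0.84 to 1.02 CPM in 4sU RNA and 0.407 to 0.497 CPM in total RNA (3 counts, counting error only). All 8 ESC markers examined reached 3 CPM in every KO library, and together they made up 4530 to 4770 CPM of total RNA. Of 10 fibroblast markers, 4 reached 3 CPM in every library and 3 had no count in total RNA, with a summed level of 82.5 to 95.2 CPM. The 8 endoderm markers summed to 12.7 to 19.1 CPM and the 8 mesoderm and ectoderm markers to 115 to 127 CPM of total RNA. In such bulk samples, fewer cells of a type and less RNA per cell cannot be told apart.

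A total of 13829 genes reached 3 CPM in at least 3 libraries and were tested. At an adjusted p below 0.05 and a change of over 1 on the log2 scale, 2327 genes (16.8% of those tested) were higher in total RNA and 3419 (24.7%) were higher in 4sU RNA. Of these 5746 genes, 5730 had the same direction in 4 of 4 cultures, which selection on the same cultures largely requires. Between the genes at the 25th and the 75th percentile the ratio differed 3.29-fold, and between the 1st and the 99th percentile it differed 100.0-fold. In single cultures the latter was 63.2-fold to 74.6-fold, and among protein-coding genes it was 40.7-fold. The median SD of a gene over the 4 cultures was 0.20 on the log2 scale, less than the spread between genes. Across genes, Spearman's rho between 2 cultures was 0.939 to 0.944, whether the cultures shared a clone or not, and between the means of both clones it was 0.969. The cultures share the annotation and the sequencing method, and genes are not independent replicates, so these correlations are descriptions.

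Genes that passed the filter because of a high level in 1 kind of library had to differ between the kinds, so types of genes were compared first among the 10839 genes that reached 3 CPM in all 8 libraries. Among these, 10421 protein-coding genes had a median log2 ratio of 0.25, with 1981 called higher in total RNA and 1186 called lower. The 179 long noncoding genes of that set had a median of −1.60, with 4 called higher and 111 called lower. These values keep the normalization over all 13829 genes, by which 2024 of the 10839 genes were called higher and 1426 lower. Fitted again on the 10839 genes alone, values moved by a median of −0.21. Of these genes 1378 were then called higher and 1857 lower, and the long noncoding median was −1.81. The balance of higher and lower calls thus depends on the genes normalized. Without the condition on every library the medians were 0.22 for 11786 protein-coding and −3.03 for 807 long noncoding genes, and 628 of the latter were below 3 CPM in some library. Loci of the annotation type TEC, which are transcribed regions awaiting experimental study, lay lower still, with a median of −3.06 and 53 of 58 called lower among those at 3 CPM in every library. Of 91 tested genes annotated as sense-intronic 90 were called lower, and 85 were below 3 CPM in some library. Whether reads at such loci come from their own transcripts or from those of overlapping genes was not tested, so their ratios need not measure their own turnover.

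**Figure D1:**
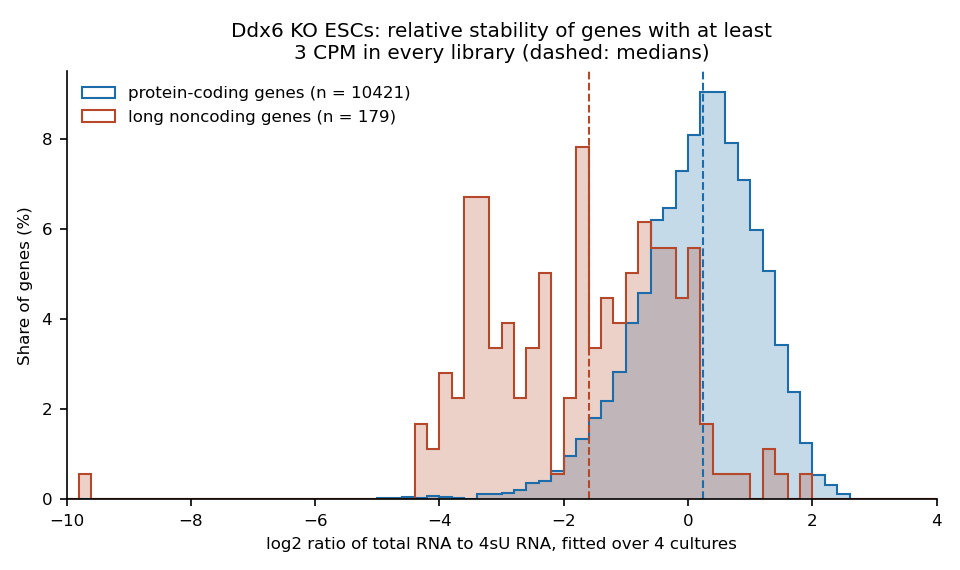
Distribution of the log2 ratio of total RNA to 4sU RNA, fitted over the 4 *Ddx6* KO cultures, as the share of genes per bin of 0.2, for protein-coding (n = 10421) and long noncoding genes (n = 179) that reached 3 CPM in all 8 libraries. Dashed lines mark the medians of 0.25 and −1.60, and 1 long noncoding gene, *Gm15564*, lies alone at −9.76.

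Among called protein-coding genes with at least 20 counts in each library, the 10 highest were *Lars*, *Igfbp2*, *Rabac1*, *Flna*, *Ech1*, *Capg*, *Vars*, *Gm364*, *Mvp* and *Atp13a2*, with log2 ratios from 2.58 down to 2.40. *Lars*, which encodes the cytosolic leucyl-tRNA synthetase, was at 80.4, 70.3, 81.9 and 84.3 CPM in 4sU RNA and at 495, 463, 473 and 456 CPM in total RNA. Its 4sU and total libraries did not overlap, and the log2 ratio was 2.58 ± 0.06 (SE, n = 4 cultures, adjusted p = 2.47e-110). *Flna*, which encodes the actin crosslinker filamin A (chrX:74223461-74249820, minus strand), was at 218, 220, 229 and 226 CPM in 4sU RNA. In total RNA it stood between 1240 and 1350 CPM, and the log2 ratio was 2.54 ± 0.05. *Igfbp2*, which encodes an IGF-binding protein (chr1:72824503-72852474, plus strand), had total RNA levels of 234 and 220 CPM in clone 1 but 153 and 141 CPM in clone 2, and its 4sU levels of 34.3, 39.7, 25.5 and 27.4 CPM were also lower in clone 2. The level of *Igfbp2* was thus lower in both cultures of clone 2, a difference that was not tested, while its ratio, 2.56 ± 0.08, ranged from 2.34 to 2.76 over the cultures.

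The listed aminoacyl-tRNA synthetase genes, whose products charge tRNAs for translation, had the highest median of the gene lists examined, at 1.63. Of these 20 genes 18 were called higher and 0 lower, where 16.8% of all tested genes were called higher. The list leaves out *Lars2*, the gene of a mitochondrial synthetase, which was called lower at −9.74 and is described below. Beside *Lars* stood *Vars*, the valyl-tRNA synthetase gene, at 2.42 ± 0.06, and the lowest of the list was *Farsa* at 0.51 ± 0.07. Glycolysis genes had a median of 1.5, and 10 of 19 were called higher. The 10 with under 5% of windows shared had a median of 1.58 and the other 9 one of 0.54, and by culture the list median was 1.58 and 1.60 in clone 1 and 0.94 and 1.24 in clone 2. Muscle enolase *Eno3* was the highest of them at 2.31 ± 0.14, from 6.79 to 9.03 CPM in 4sU RNA and 35.9 to 41.8 CPM in total RNA. The other called members included *Ldha* at 1.94, *Aldoa* at 1.87 and *Pkm* at 1.59, whereas *Gapdh*, described below with the genes that share sequence, was the 1 called lower, where the re-sequencing run alone called 4 lower.

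Subunits of the proteasome, which degrades ubiquitinated proteins, had a median of 1.17, with 21 of 36 called higher and 1 called lower. The 1 called lower, *Psma3* at −1.03 ± 0.09, shares 15.4% of its windows with other genes. With the single-end run alone it stood at −0.42 and was not called. *Psmb1*, which encodes a subunit of the catalytic core (chr17:15475021-15499751, minus strand), was at 46.4, 54.3, 55.1 and 51.3 CPM in 4sU RNA and at 200, 189, 200 and 197 CPM in total RNA. Its log2 ratio of 1.93 ± 0.07 was the highest of the list. Nuclear genes for the respiratory chain and the ATP synthase also had a median of 1.17, with 44 of 79 called higher and 8 called lower. *Uqcrc1*, which encodes a core subunit of complex III, was at 68.5 to 71.6 CPM in 4sU RNA and 320 to 341 CPM in total RNA, a ratio of 2.26 ± 0.06.

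DNA replication genes had a median of 0.64, with 14 of 43 (32.6%) called higher. The highest was *Pold1*, the catalytic subunit of DNA polymerase delta, at 2.22 ± 0.08. The sliding clamp gene *Pcna* was the 1 called lower, at −1.27 ± 0.05. Mitosis genes had a median of 0.51, with 8 of 30 called higher, led by the checkpoint kinase gene *Bub1b* at 1.67 ± 0.06, and *Ccnb1*, which encodes cyclin B1, was the 1 called lower at −1.01 ± 0.06. Among G1/S regulators 1 of 22 was called higher, *Ccnd3* at 1.47 ± 0.08, and 4 (18.2%) were called lower, with a median of −0.01 that was positive, up to 0.31, in 3 of the alternative settings. Both shares were below the 16.8% and 24.7% of all tested genes, but the share called lower was above the 14.2% of the protein-coding ones. *Pcna* and *Ccnb1* have 19.1% and 23.4% of their sequence windows in common with other genes, and with single-end reads alone they stood at −0.91 and −0.34 and were not called.

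Translation initiation factor genes had a median of 0.47, with 13 of 53 (24.5%) called higher and 5 (9.43%) called lower. They ranged from *Eif3i* at 1.98 to *Eif1* at −3.66. Of the 5 called lower, 4 share 5% or more of their windows with other genes. *Eif1* shares 19.2% and stood at −3.15 with the single-end run alone and at −4.20 with the re-sequencing run alone. ER chaperone genes had a median of 0.54, with 6 of 16 (37.5%) called higher and 1 (6.25%) called lower. They ranged from *Ppib* at 2.22 to *Dnajb9*, a co-chaperone gene induced by ER stress, at −3.34. Cholesterol synthesis genes had a median of 0.34 (6 of 24 called higher, 2 lower), from *Pmvk* at 1.39 to *Idi1* at −3.20, where *Idi1* had as few as 9 counts in a library and stood at −1.73 with single-end reads alone. Mitochondrial ribosomal protein genes had a median of 0.20 (13 of 76 called higher, 7 lower). Tubulin and actin genes had one of 0.59 (3 of 13, or 23.1%, called higher, and 1, or 7.69%, lower). The share of mitochondrial ribosomal protein genes called higher, 17.1%, was close to the 16.8% of all tested genes. Their share called lower, 9.21%, was below the 24.7% of all tested genes.

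**Figure D2:**
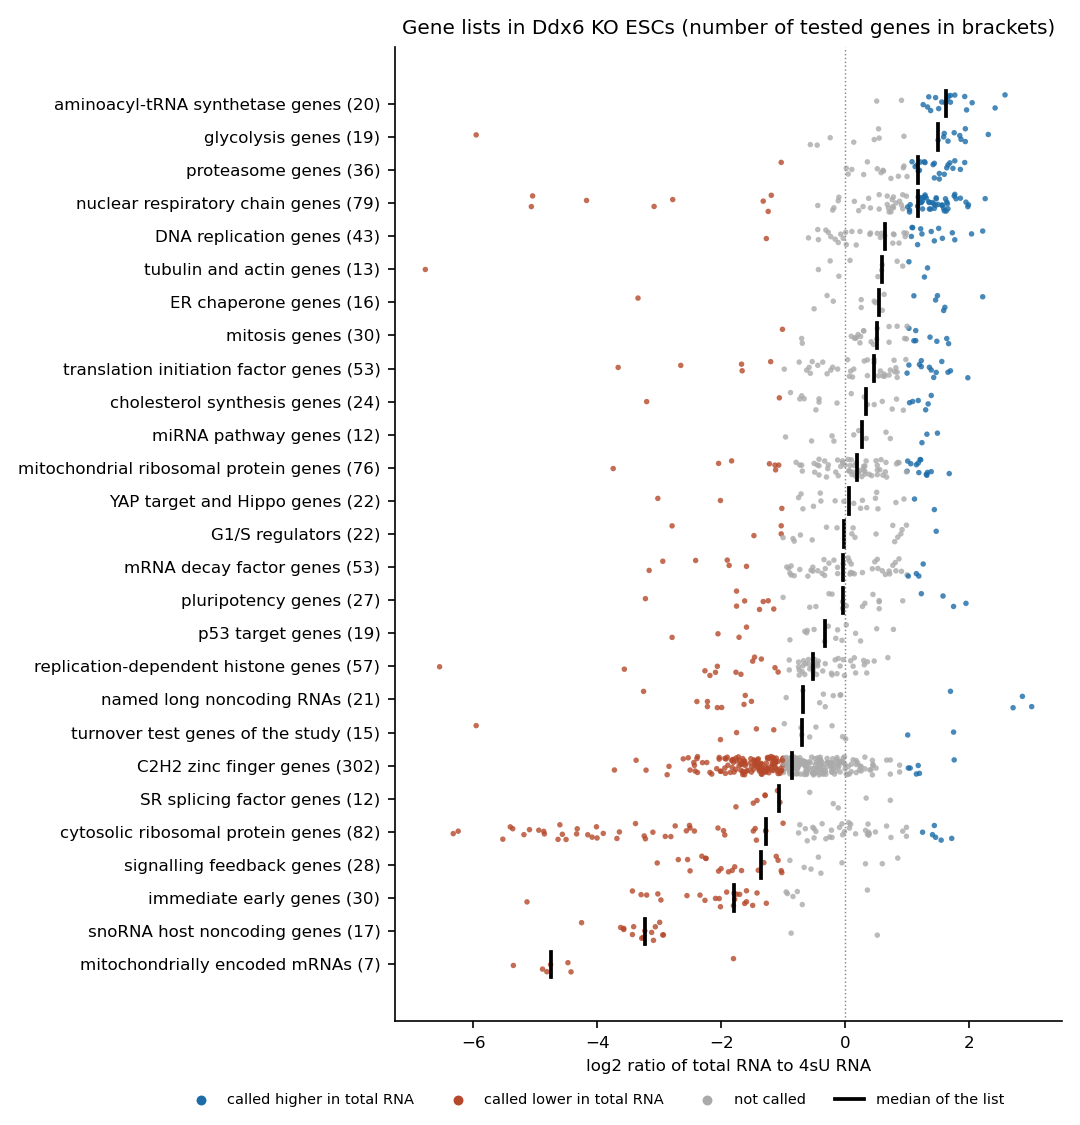
Log2 ratio of total RNA to 4sU RNA of the tested members of 27 gene lists in *Ddx6* KO ESCs, 1 point per gene, with the list median as a black bar and calls in color. Aminoacyl-tRNA synthetase genes (median 1.63) stand at the top and mitochondrially encoded mRNAs (median −4.75) at the bottom, and cytosolic ribosomal protein genes spread from 1.72 to −6.32.

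Immediate early genes, which encode short-lived transcription factors and regulators, had a median of −1.79, with 24 of 30 tested genes (80.0%) called lower in total RNA and 0 called higher, where 24.7% of all tested genes were called lower. *Fos*, which encodes a subunit of AP-1 (chr12:85473890-85477273, plus strand), was at 130, 87.6, 99.6 and 106 CPM in 4sU RNA and at 11.4, 8.88, 14.5 and 7.72 CPM in total RNA. Its log2 ratio was −3.29 ± 0.10 (SE, n = 4 cultures, adjusted p = 1.72e-83), and the libraries of both kinds did not overlap. *Egr1*, which encodes a zinc finger factor, was at 253, 86.9, 242 and 167 CPM in 4sU RNA and at 6.79, 2.73, 6.51 and 5.14 CPM in total RNA. The second culture of clone 1 was the lowest in both kinds of RNA, and the fitted ratio was −5.13 ± 0.10, or 34.9-fold more in 4sU RNA. Computed per culture with 0.5 CPM added to both levels, it lay between −4.76 and −5.11. The highest member was *Jund* at 0.36 ± 0.06. *Myc*, named here after its value was seen, was at −3.43 ± 0.21 with as few as 6 counts in a total RNA library.

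Genes that feed back on FGF, BMP, Nodal, Wnt and cytokine signaling had a median of −1.36, with 19 of 28 called lower and 0 called higher. *Id2*, which encodes an inhibitor of bHLH factors downstream of BMP, was at 33.1, 44.1, 32.2 and 33.9 CPM in 4sU RNA and 4.47, 4.92, 4.21 and 3.86 CPM in total RNA. Its ratio of −3.03 ± 0.15 was the lowest of the list, followed by the FGF inhibitor *Spry2* at −2.69, and *Lefty2*, an inhibitor of Nodal, was the highest at 0.85 ± 0.14 without being called. p53 target genes had a median of −0.33, with 4 of 19 (21.1%) called lower and 0 called higher. Of all tested genes 24.7% were called lower, and of the protein-coding ones 14.2%. The lowest p53 target was *Cdkn1a* at −2.79. YAP target and Hippo genes had a median of 0.06, with 2 of 22 called higher and 3 called lower, and this median was negative in 5 of the alternative settings (−0.01 to −0.23). Their shares called higher and lower, 9.09% and 13.6%, were below the 16.8% and 24.7% of all tested genes. The YAP targets *Ccn1* (−2.01 ± 0.07) and *Ccn2* (−3.02 ± 0.08) were called lower, and the transcription factor gene *Tead2* was called higher (1.44 ± 0.07). The lists overlap, since *Ccn1* and *Ccn2* are also counted among the immediate early genes and *Cdkn1a* among the G1/S regulators.

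AU-rich elements are stretches of A and U in 3′ UTRs that recruit decay factors such as the zinc finger protein encoded by *Zfp36*. The core TATTTAT was present in the annotated 3′ UTR of 20 of 30 immediate early genes (66.7%) and of 16 of 28 signaling feedback genes (57.1%), and in 28.6% of all tested protein-coding genes. It was present in 24.7% of the 21866 principal 3′ UTRs of the annotation. Letters were searched on the transcript strand and matches were allowed to overlap. The windows below are GRCm38 sequence from Gencode transcripts, 28 bases each with TATTTAT in capitals. They are shown for fast genes of both lists and for *Psmb1*, which carries 3 matches and lay near the slow end. *Zfp36*, *Pim1* and *Dusp1* were chosen after their values were seen.
Fos: tgttttcaattTATTTATtaagatggat
Zfp36: cttTATTTATgacgacttTATTTATtgt
Dusp1: gagctggtcctTATTTATttaacacccc
Id2: tgtgataccgtTATTTATgagagacttt
Pim1: taatgTATTTATTTATTTATTTATttgg
Psmb1: atctggataTATTTATTTATtttgagat

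These windows lie in 3′ UTRs, at chr12:85477103-85477130 (plus strand) in *Fos*, chr7:28376959-28376986 (minus) in *Zfp36*, chr17:26506160-26506187 (minus) in *Dusp1*, chr12:25094356-25094383 (minus) in *Id2*, chr17:29495691-29495718 (plus) in *Pim1* and chr17:15475676-15475703 (minus) in *Psmb1*. *Zfp36* had 3 matches in all and a log2 ratio of −3.20 ± 0.12, and *Dusp1*, which encodes a MAP kinase phosphatase, had 3 matches and a ratio of −2.97 ± 0.07. *Pim1*, which encodes a kinase induced by cytokines, carries 4 overlapping matches in a single window and stood at −1.02 ± 0.06, and at −0.94, not called, with the re-sequencing run alone. The 3 tested protein-coding genes with the most matches were *D10Wsu102e* with 14 (log2 ratio −1.42), *D1Ertd622e* with 13 (−1.22) and *Zfp941* with 11 (−1.35). All 3 were called lower in total RNA. Their annotated 3′ UTRs are 122583, 39397 and 1740 bases long. Of the 419 genes with at least 3 matches 23.4% were called lower, and of all tested protein-coding genes 14.2%.

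Pluripotency genes were spread over most of the ranking, with a median of −0.04, 4 of 27 called higher and 8 called lower. The share called higher, 14.8%, was below the 16.8% of all tested genes. The share called lower was 29.6%, where it was 24.7% of all tested genes and 14.2% of the protein-coding ones. *Pou5f1*, the gene of the core factor OCT4 (chr17:35506018-35510772, plus strand), was at 255, 245, 298 and 258 CPM in 4sU RNA and 915, 859, 884 and 877 CPM in total RNA, a log2 ratio of 1.75 ± 0.05 (SE, n = 4 cultures, adjusted p = 6.96e-93). *Nanog* showed the opposite order, at 1500, 1520, 1490 and 1420 CPM in 4sU RNA and 1010, 1010, 978 and 984 CPM in total RNA, a ratio of −0.57 ± 0.05 that was not past the fold required for a call. *Klf5*, a Krüppel-like factor gene, was the lowest, at 647 to 775 CPM in 4sU RNA and 67.1 to 80.9 CPM in total RNA, a ratio of −3.22 ± 0.05. The highest was *Dnmt3l*, the cofactor of de novo DNA methylation, at 1.95 ± 0.08. Between these stood *Sox2* at −1.15 ± 0.05 and *Klf4* at −1.75 ± 0.05, both called lower, and *Esrrb* at −0.47, *Zfp42* at −0.21 and *Sall4* at −0.04, none of them called. *Sox2* was at −0.95 when no filter beyond 1 count was used.

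Among other genes for which the study listed primers, *Ccn1* and *Pgap1* (−1.43 ± 0.08) were called lower. *Bak1*, a gene of apoptosis, was at 1.01 ± 0.07, just past the fold required, and was not called with 9 of the alternative settings. *Mycn* at −0.70, *Amotl2* at −0.71, *Otx2* at −0.98 and *Impact* at 0.01 were not called, although *Otx2*, with as few as 10 counts in a library, passed the threshold in 6 of the alternative settings.

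DDX6 works with the machinery that shortens poly(A) tails, removes caps and silences miRNA targets, so the transcripts of that machinery were examined. mRNA decay factor genes had a median of −0.03, with 4 of 53 called higher and 6 called lower. Both shares, 7.55% and 11.3%, were below the 16.8% and 24.7% of all tested genes. *Cnot1*, the scaffold of the CCR4-NOT deadenylase that binds DDX6 (chr8:95719451-95807464, minus strand), was at 429, 463, 493 and 429 CPM in 4sU RNA and 976, 1070, 1140 and 1130 CPM in total RNA, and its ratio of 1.26 ± 0.05 was the highest of the list. *Btg1*, an antiproliferative gene whose product binds that deadenylase, was the lowest at −3.16 ± 0.08, and *Tob1*, of the same protein family, was at −2.41. *Patl1*, which encodes a decapping factor that binds DDX6, was called lower at −1.90, and the decapping enzyme gene *Dcp2* (0.91) and the exonuclease gene *Xrn1* (0.15) were not called. miRNA pathway genes had a median of 0.28, with 3 of 12 called higher and 0 lower. The 3 were *Prkra* (1.49 ± 0.22, as few as 10 counts), *Xpo5* (1.32) and *Dicer1* (1.24), while *Ago2* stood at −0.54 and *Tarbp2* at −0.96. *Tarbp2*, which shares 14.3% of its windows, passed the threshold in 6 of the alternative settings.

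ESCs express miRNAs of the miR-290 and miR-302 clusters that share a seed (bases 2 to 8) and are often called ESC cell cycle regulating (ESCC) miRNAs. Their mature sequences from RefSeq (GRCm38.p6) are shown with the seed in capitals. The site for bases 2 to 7 of all 5 is GCACTT.
miR-291a-3p: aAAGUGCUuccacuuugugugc
miR-294-3p: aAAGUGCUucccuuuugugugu
miR-295-3p: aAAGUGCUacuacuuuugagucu
miR-302b-3p: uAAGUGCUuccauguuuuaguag
miR-302d-3p: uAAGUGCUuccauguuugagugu

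The letters GCACTT occurred in 31.5% of tested protein-coding 3′ UTRs, in 25.4% of all 21866 principal 3′ UTRs, and in 16 of 22 G1/S regulators (72.7%). *Cdkn1a*, which encodes the cell cycle inhibitor p21, and *Lats2*, a Hippo pathway kinase gene, are known targets of this family. *Glo1*, which encodes glyoxalase 1, was chosen after its value was seen because it carries 4 matches and was called higher in total RNA. The windows below are 24 bases of GRCm38 with GCACTT in capitals.
Cdkn1a site 1: acctgaataGCACTTtggaaaaat
Cdkn1a site 2: catatctagGCACTTgccccacag
Cdkn1a site 3: ggtgtcaaaGCACTTagtgggtct
Lats2 site 1: atggaaagaGCACTTattttgtgg
Lats2 site 2: tatctgataGCACTTgtccacagc
Glo1 site 1: cagctatggGCACTTggtgatcta

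The 3 sites of *Cdkn1a* lie on the plus strand at chr17:29099820-29099843, chr17:29100141-29100164 and chr17:29100492-29100515, those of *Lats2* on the minus strand at chr14:57691078-57691101 and chr14:57690979-57691002, and the first of *Glo1* on the minus strand at chr17:30592920-30592943, all in 3′ UTRs. *Cdkn1a* was at 504, 528, 483 and 494 CPM in 4sU RNA and 59.8, 77.8, 70.4 and 82.0 CPM in total RNA, a log2 ratio of −2.79 ± 0.06. *Lats2* was at 32.5 to 43.5 CPM in 4sU RNA and 16.9 to 22.7 CPM in total RNA, a ratio of −1.02 ± 0.11 that was −0.95 and not called with the re-sequencing run alone. *Glo1* was at 21.3 to 33.1 CPM in 4sU RNA and 70.9 to 80.5 CPM in total RNA, a ratio of 1.56 ± 0.10. The same letters thus occurred in genes at both ends of the ranking. The tested genes with the most matches were *D10Wsu102e* with 28, *Zbtb37* with 11 (log2 ratio −0.37, not called) and *Hnrnpr* with 10 (−0.81, not called). The annotated 3′ UTR of *D10Wsu102e* is 122583 bases long, the longest among tested genes.

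**Figure D3:**
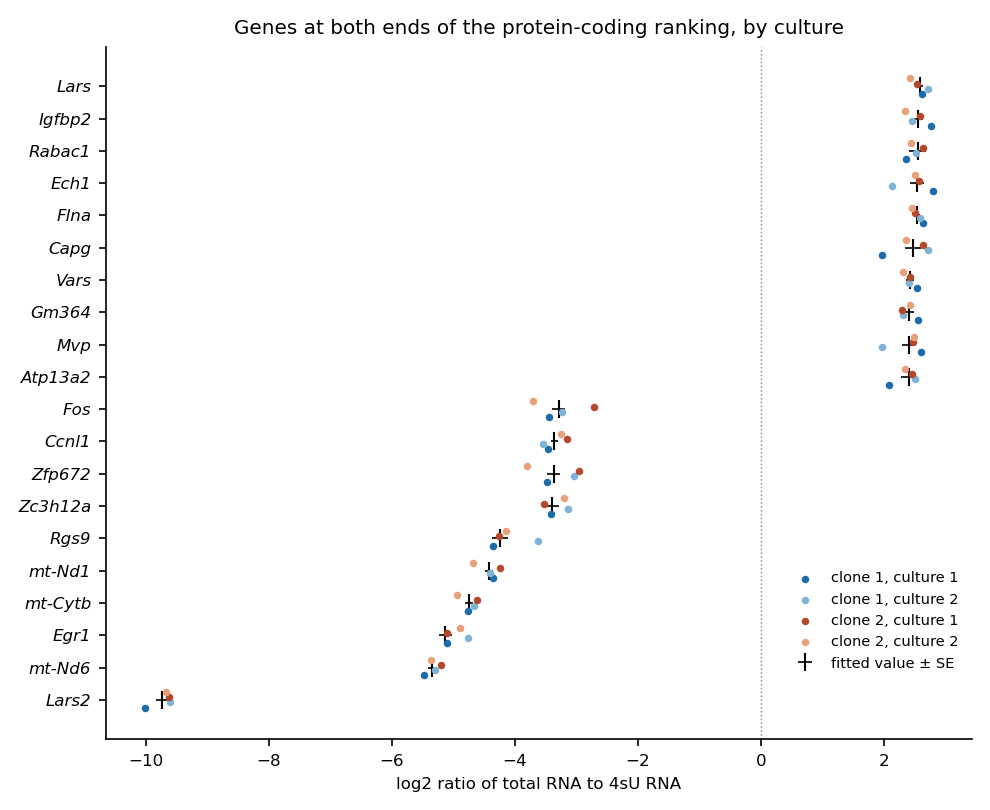
Log2 ratio of total RNA to 4sU RNA in each of the 4 *Ddx6* KO cultures (colored points) with the fitted value and its SE (black cross), for the 10 highest protein-coding genes and the 10 lowest with under 5% of windows shared with another gene. The cultures of a gene lie close to each other compared with the distance between the ends, which run from 2.58 for *Lars* to −9.74 for *Lars2*.

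The 10 lowest called protein-coding genes with at least 20 counts in each library were *Lars2*, *Gapdh*, *mt-Nd6*, *Egr1*, *Rps27a*, *Rpl10*, *mt-Nd2*, *mt-Nd5*, *mt-Cytb* and *Rps13*. *Lars2*, which encodes the mitochondrial leucyl-tRNA synthetase (chr9:123366927-123462666, plus strand), took 2.95% to 3.21% of all counts in the 4sU libraries and 0.00306% to 0.00379% in total RNA, a log2 ratio of −9.74 ± 0.09. The noncoding gene *Gm15564*, at −9.76 ± 0.08, was at 4680 to 5400 CPM in 4sU RNA and 4.34 to 7.62 CPM in total RNA. Ribosomal RNA was depleted from total RNA with a kit and the 4sU RNA was purified by pulldown, and whether these steps have a part in the values of *Lars2* and *Gm15564* was not tested. With the single-end reads alone *Lars2* stood at −8.94, and with the re-sequencing reads alone at −10.47.

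All 7 tested mitochondrially encoded mRNAs, of 13 listed, were called lower in total RNA, with a median of −4.75. The mitochondrial genes together took 7.07% to 8.99% of counts in the 4sU libraries and 0.641% to 0.689% in total RNA. *mt-Nd1*, which encodes a subunit of complex I, was at 21500, 21200, 19000 and 24100 CPM in 4sU RNA and at 1040, 1010, 986 and 940 CPM in total RNA, a ratio of −4.42 ± 0.06. *mt-Nd6*, the mRNA transcribed from the other strand of the mitochondrial genome, was the lowest at −5.35 ± 0.06. The highest was *mt-Co1* at −1.80 ± 0.05, which shares 51.1% of its windows with other annotated genes. Nuclear genes for the same respiratory complexes lay on the other side of 0, with the median of 1.17 given above. The part of the depletion kit in the mitochondrial values was not tested either.

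*Gapdh* and many ribosomal protein genes have processed pseudogenes elsewhere in the genome, and the authors kept only reads that map to a single place. The share of the 50-base windows of a gene's transcripts that recur in another annotated gene was therefore computed. The median ratio of protein-coding genes was 0.29 for 6600 genes with no shared window, −0.14 for 753 genes with more than 5% and up to 20% shared, −0.70 for 308 with up to 50% and −1.34 for 39 with more than 80%. The total RNA libraries were sequenced with single-end reads and the 4sU libraries with single-end and, in a second run, paired-end reads. Of the 39 genes with more than 80% shared windows, 32 were fitted with each run alone. Their median was −0.97 with both runs summed, −0.32 with the single-end run of the 4sU libraries and −1.52 with the re-sequencing run. The 6501 genes with no shared window fitted with each run had medians of 0.30, 0.28 and 0.34. Of 11618 protein-coding genes fitted with each run, 292 were lower by at least 1 on the log2 scale with the re-sequencing run, and 251 of these shared 5% or more of their windows.

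*Gapdh* (chr6:125161715-125166467, minus strand), with 24.7% of windows shared, was at 426, 383, 460 and 466 CPM in 4sU RNA and 7.62, 8.06, 5.83 and 6.27 CPM in total RNA, a ratio of −5.95 ± 0.08. Its 4sU level was 70.1 to 102 CPM in the single-end run and 863 to 980 CPM in the re-sequencing run of the same libraries, and the ratio was −3.57 with the first and −7.11 with the second. The level of *Gapdh* in 4sU RNA thus differed between the runs. *Actg1*, with 36.3% of windows shared and as few as 8 counts in total RNA, stood at −6.77 ± 0.11, and at −4.21 and −7.95 with each run alone.

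Cytosolic ribosomal protein genes had a median of −1.28, with 43 of 82 called lower and 6 called higher, and moved in the same way. With the single-end run alone their median was −0.35, and with the re-sequencing run alone −1.84. The 6 members with under 5% of windows shared had a median of 1.07, and the other 76 had one of −1.47. *Rpl8* (chr15:76904078-76906314, plus strand; 4.80% shared) was the highest, at 412, 400, 407 and 457 CPM in 4sU RNA and between 1350 and 1400 CPM in total RNA, a ratio of 1.72 ± 0.05. *Rps27a* (20.9% shared) was at 181 to 233 CPM in 4sU RNA and 5.19 to 6.38 CPM in total RNA, a ratio of −5.09 ± 0.10 that became −3.95 and −5.97 with each run alone. The lowest, *Rps29*, had as few as 2 counts in a total RNA library and stood at −6.32 ± 0.18. The run and the kind of reads cannot be told apart in these values.

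**Figure D4:**
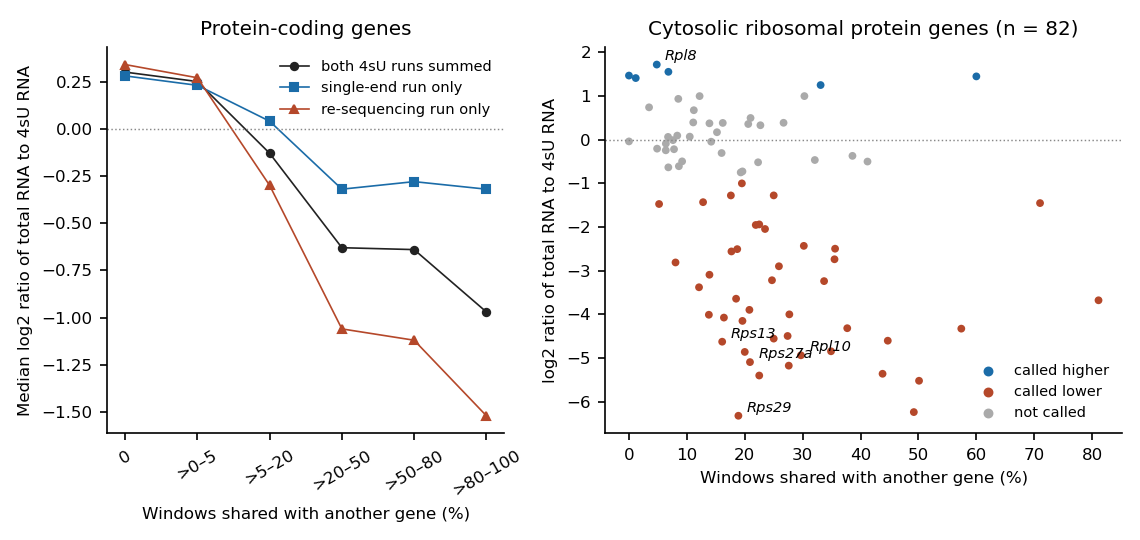
Left, median log2 ratio of protein-coding genes fitted with each run, by the percentage of windows shared with another gene. Lines show both 4sU runs summed and each run alone. Right, each of 82 cytosolic ribosomal protein genes by the same percentage. The medians separate by run above 5% shared, reaching −0.32 and −1.52 above 80%, and *Rpl8* at 4.80% shared is the highest ribosomal protein gene at 1.72.

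With under 5% of windows shared, a choice made after the data were seen, the 10 lowest called protein-coding genes with at least 20 counts in each library were *Lars2*, *mt-Nd6*, *Egr1*, *mt-Cytb*, *mt-Nd1*, *Rgs9*, *Zc3h12a*, *Zfp672*, *Ccnl1* and *Fos*. *Zc3h12a*, which encodes the endoribonuclease Regnase-1 (chr4:125118423-125127840, minus strand), was at 67.3, 84.2, 81.3 and 72.3 CPM in 4sU RNA and 5.80, 9.15, 6.51 and 7.40 CPM in total RNA, a ratio of −3.40 ± 0.11. *Ccnl1*, which encodes the splicing-related cyclin L1, was at 650 to 724 CPM in 4sU RNA and 61.7 to 76.8 CPM in total RNA, a ratio of −3.36 ± 0.06. *Rgs9* stood at −4.25 ± 0.13, but its 4sU level was 4.30 to 10.4 CPM in the single-end run and 135 to 178 CPM in the re-sequencing run. With single-end reads alone its ratio was −0.90 and it was not called.

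SR splicing factor genes had a median of −1.07, with 7 of 12 called lower and 0 called higher, from *Srsf9* at 0.73 to *Srsf10* at −1.76. The 8 members with under 5% of windows shared had a median of −0.38 with 3 called lower, and the other 4, all called lower, had one of −1.45. With the single-end run alone 5 members were called lower. C2H2 zinc finger genes, a large family of DNA-binding factors, had a median of −0.86, with 126 of 302 called lower and 6 called higher. Among the 277 that reached 3 CPM in all 8 libraries the median was −0.80. The zinc finger genes had a median of 5 exons and the tested protein-coding genes one of 9. *Zfp512* was the highest at 1.76 ± 0.11.

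Replication-dependent histone genes, whose mRNAs end in a stem-loop in place of a poly(A) tail, had a median of −0.51, with 13 of 57 (22.8%) called lower and 0 called higher. Of all tested genes 24.7% were called lower, and of the protein-coding ones 14.2%. With the single-end run alone the median was −0.34 and 8 were called lower, and with the re-sequencing run alone it was −0.78 and 20 were called lower. Of these genes 48 share 5% or more of their windows with other genes, and the 9 that do not had a median of −0.49. *Hist1h1e*, the gene of a linker histone (chr13:23620629-23622558, minus strand), was the highest, at 148, 188, 201 and 190 CPM in 4sU RNA and 281, 284, 302 and 300 CPM in total RNA, a ratio of 0.69 ± 0.06. *Hist1h2ab*, named after its value was seen, was at 159 to 199 CPM in 4sU RNA and 79.0 to 86.5 CPM in total RNA, a ratio of −1.08 ± 0.06 that was −0.58 and not called with the single-end run alone and −1.62 with the re-sequencing run alone. The lowest, *Hist1h4n*, shares 85.6% of its windows, had as few as 3 counts in a library and moved from −6.54 to −1.48 with single-end reads alone. A stem of 6 bases around a loop of 4 bases, of any sequence, was found in 39 of the 44 tested histone genes with an annotated 3′ UTR. In 19 genes the first match was the most frequent stem and loop. Matches in other 3′ UTRs were not counted. The first match is given in GRCm38 sequence of 26 bases, with both arms of the stem in capitals. It is shown for a gene above 0 and a gene below 0, which carry the same stem and loop.
Hist1h1e: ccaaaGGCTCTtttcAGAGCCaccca
Hist1h2ab: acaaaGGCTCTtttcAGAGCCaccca

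The window of *Hist1h1e* is at chr13:23621777-23621802 on the minus strand and that of *Hist1h2ab* at chr13:23751567-23751592 on the plus strand.

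Noncoding hosts of small nucleolar RNAs (snoRNAs), transcripts spliced to release snoRNAs from their introns, formed the lowest list of nuclear genes, with a median of −3.23 and 15 of 17 called lower. At 3 CPM in every library were 15 of them, with a median of −3.26 and 13 called lower. *Dancr* (chr5:74093060-74095406, plus strand) was at 95.8, 85.2, 74.2 and 94.4 CPM in 4sU RNA and 4.14, 3.41, 5.56 and 4.98 CPM in total RNA, a ratio of −4.25 ± 0.12. *Gas5*, named after its value was seen and a known substrate of nonsense-mediated decay, was at 1190 to 1280 CPM in 4sU RNA and 139 to 159 CPM in total RNA, a ratio of −3.06 ± 0.05. *Snhg14* at 0.52 and *Snhg11* at −0.87 were the members not called.

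Well-known long noncoding RNAs had a median of −0.68, with 9 of 21 called lower and 4 called higher. *Neat1*, the scaffold of nuclear paraspeckles (chr19:5824708-5845478, minus strand), was at 1160, 921, 968 and 1160 CPM in 4sU RNA and 104, 107, 105 and 123 CPM in total RNA, a ratio of −3.25 ± 0.05. The nuclear speckle RNA *Malat1* stood at −0.08 ± 0.05. The highest of the list was the telomerase RNA *Terc* at 3.01 ± 0.14, with as few as 17 counts in a library, and high as well, named after their values were seen, were the ribozyme RNAs *Rmrp* at 2.86 ± 0.06 and *Rpph1* at 2.71 ± 0.06. *Rmrp*, the RNA of RNase MRP, was at 1210 to 1460 CPM in 4sU RNA and 9040 to 9990 CPM in total RNA. The values of other small RNA genes differed by type. Among 75 snoRNA genes that reached 3 CPM in all 8 libraries the median was −1.46, with 48 called lower and 8 higher. Whether reads of snoRNA genes come in part from their host transcripts was not tested. Over all 32 tested snRNA genes the median was −3.12, with 24 called lower and 3 higher, but 25 were below 3 CPM in some library. The 7 snRNA genes at 3 CPM in every library had a median of 0.41, with 2 called higher and 1 lower. The 5 genes of the annotation type scaRNA at that level had a median of 1.90, with 4 called higher and 0 lower. In the annotation's long noncoding types only 3 called genes with at least 20 counts in each library were higher in total RNA, namely *Ndufb1-ps* (1.88), *Ifi30* (1.32) and *Cct6a* (1.31), of which *Ifi30* and *Cct6a* carry symbols of known proteins. The lowest beside *Gm15564* and *Dancr* were *Gm29170* (−4.25, annotated as sense-intronic) and *6720427I07Rik* (−4.24).

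Features of the transcripts were then set beside the ranking of 11778 protein-coding genes with a principal isoform, as descriptions across genes, which are not independent. The number of exons had the largest correlation with the log2 ratio, Spearman's rho 0.388, and 0.361 to 0.399 in single cultures. The 325 genes with 1 exon had a median of −1.02, those with 3 or 4 exons one of −0.44, those with 5 to 8 one of 0.11, and the 1619 genes with 21 or more exons one of 0.64. Of the genes with 1 exon 50.8% were called lower and 1.23% higher, and of those with 21 or more 2.90% were called lower and 32.7% higher. Histone genes were 55 of the genes with 1 exon, and the 267 outside both the histone and the zinc finger lists had a median of −1.18. Per kb of coding sequence, exon number kept a rho of 0.324, whereas the length of the coding sequence had one of 0.13.

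The 3′ UTR was shorter in slow genes. Its median length was 1188 bases in the quintile of genes with the lowest ratio and 1296 in the next quintile, and it was 630 bases in the quintile with the highest ratio (rho −0.16). Genes with 0, 1, 2 and at least 3 matches to TATTTAT had medians of 0.30, 0.10, −0.04 and −0.29. For GCACTT the medians were 0.32, 0.10, −0.03 and −0.25, and for the Pumilio motif TGTANATA, added after the data were seen, they were 0.29, 0.07, −0.04 and −0.10. Genes with more matches also had longer 3′ UTRs, with a median of 748 bases for 0 and 3265 bases for at least 3 matches to TATTTAT. Within quintiles of 3′ UTR length, the median of genes with TATTTAT minus that of genes without it was −0.27 to −0.07, and for GCACTT it was −0.32 to −0.08. The difference for GCACTT was negative in every culture and length quintile, and that for TATTTAT was negative everywhere except for the shortest quintile in the second culture of clone 2, where it was 0.06.

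**Figure D5:**
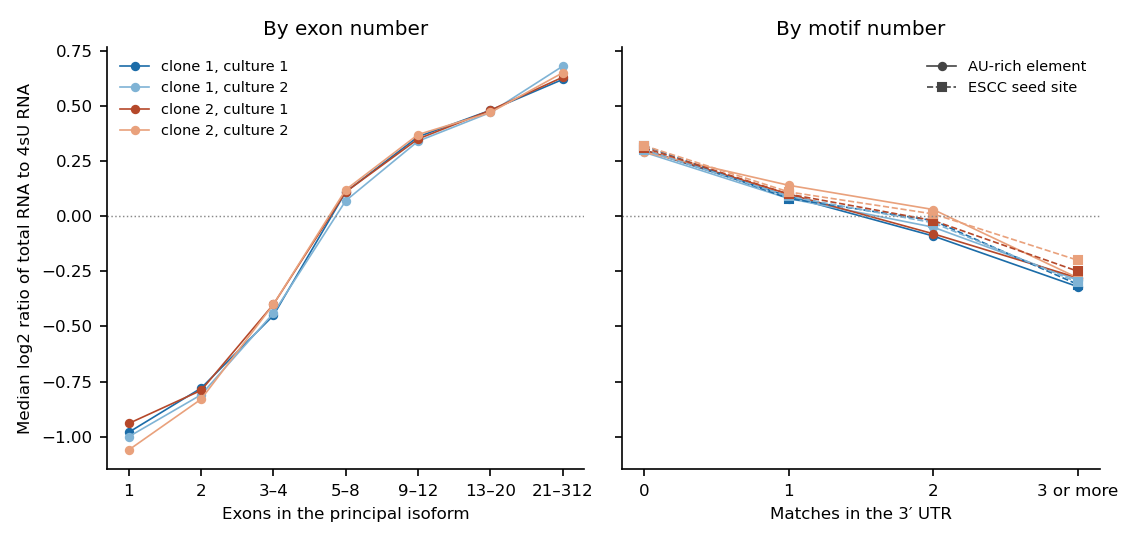
Median log2 ratio of total RNA to 4sU RNA by number of exons (left) and by number of matches to TATTTAT (AU-rich element) or GCACTT (ESCC seed site) in the 3′ UTR (right), with 1 line for each of the 4 *Ddx6* KO cultures. Over all cultures the median rose from −1.02 at 1 exon to 0.64 at 21 or more, and fell from 0.30 to −0.29 with AU-rich elements and from 0.32 to −0.25 with seed sites.

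GC content had weaker relations, with rho 0.127 for the 5′ UTR, 0.135 for the 3′ UTR and 0.00968 for the coding sequence. The number of ATG triplets in the 5′ UTR had a rho of −0.0932. Over 11550 genes, the frequencies of 38 of 61 codons correlated positively with the ratio and those of 23 negatively. Of the 38, 22 end in G or C, as do 31 of all 61, and of the 23, 14 end in A or T. GTG, for valine, had the highest rho at 0.166, from 26.1 per 1000 codons in the quintile of genes with the lowest ratio to 31.8 in the quintile with the highest. CAC, for histidine, had the lowest at −0.111, from 17.5 to 14 per 1000. By amino acid the ends were valine (0.179) and serine (−0.162). For every codon the absolute rho was below that of exon number.

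The 2 clones were compared by the interaction of clone and kind of RNA. At the same thresholds 1 of 13829 genes (0.00723%) differed, *Icosl*, which encodes a costimulatory ligand of T cells, with a log2 ratio that was higher in clone 2 by 1.37 ± 0.32 (SE, adjusted p = 0.0469). Its 4sU levels were 19.1 and 20.4 CPM in clone 1, above the 11.3 and 14.8 CPM of clone 2. Its total RNA levels were 8.11 and 8.47 CPM in clone 1, below the 13.4 and 15.0 CPM of clone 2. At an unadjusted p below 0.05 were 604 genes (4.37%). DESeq2 called 0 genes, with 38 at an unadjusted p below 0.05, and limma-voom called 1, with 601, and the call of *Icosl* was lost without the second culture of clone 2. At the adjusted p alone 4 genes differed, *Icosl*, *Mpzl1* (0.97), *Gm23935* (0.70) and *Ddx6* (−0.93 ± 0.15, adjusted p = 3.81e-06), whose ratio was lower in clone 2.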

How the data were processed

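RNA from 4 *Ddx6* KO cultures was analyzed as 8 libraries. The authors deposited raw read counts per gene for 51467 genes, made with Cutadapt 1.14, STAR 2.5.3a (uniquely mapped reads) and strand-specific counting in featureCounts 1.5.3 on mm10 with Gencode M14 lacking rRNA genes. Total RNA was counted from single-end reads and 4sU RNA from single-end reads and a paired-end re-sequencing run, whose counts were summed per library here, as in the study. The 92 ERCC spike-in entries held no count and were left out.

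Genes that reached 3 CPM in 3 or more of the 8 libraries were tested in edgeR 4.0.16 (R 4.3.3) with TMM normalization and a quasi-likelihood F test of total against 4sU RNA, with the culture as a block. Clones were compared by the interaction of clone and kind of RNA. A call required a Benjamini-Hochberg adjusted p below 0.05 over all 13829 tested genes and an absolute log2 change over 1. The pairing comes from dividing 1 RNA extract per culture, and the deviations of paired libraries from the mean of their kind correlated at 0.11 to 0.138, and at 0.01 to 0.036 once the clone means were removed. Per-culture ratios used 0.5 CPM added to both levels. In simulated counts for 13829 genes, 96% and 100% of genes planted at 1.5 and 2.5 on the log2 scale were called for total against 4sU RNA, and 74% and 92% for the clone difference, beside 2 and 1 unchanged genes. The simulation gave every gene the same dispersion, which was not taken from the data. It also gave both libraries of a culture the same culture effect, unlike the weak correlation within clones. Its rates check the fitting and do not measure power or false calls in these data.

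Gene types, isoforms and sequence came from Gencode M21 (GRCm38), which holds 51274 of the genes. Motifs were counted in annotated 3′ UTRs of principal isoforms. Shared windows are 50-base stretches of a gene's transcripts found in another annotated gene. Python 3.11.15, numpy 2.4.6, pandas 2.3.3 and scipy 1.17.1 were used.

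Named by rule were *Ddx6*, genes that the study listed primers for or named for pluripotency, the 10 highest and 10 lowest called protein-coding and 4 highest and 4 lowest long noncoding genes with at least 20 counts in each library, the extremes of each list with 5 or more tested members, genes called between clones, and the 3 genes with the most matches to each motif. Other genes were chosen after their values were seen. The members and lists were chosen with earlier results of these data known. DESeq2 1.42.0, limma-voom 3.58.1, other filters, normalization, single runs, single clones and left-out cultures were tried as alternatives.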

Additional observations from a re-analysis of the deposited data

Results flagged for a closer look

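Among 127 values over the 4 cultures examined, 4 genes had 1 culture apart from the others by Dixon's ratio of the gap to the range above its critical value, and chance flags about 1 in 20 such groups. *Ppib*, of the ER chaperones, had log2 ratios of 2.13, 2.41, 2.13 and 2.17, with the second culture of clone 1 apart (0.850). *Rpl8* had 1.77, 1.75, 1.78 and 1.57, with the second culture of clone 2 apart (0.900). *Tubb3*, a neuronal tubulin gene, had 1.37 to 1.41 in the other cultures and a lower value in the first culture of clone 2 (0.862), and *Mycn* had −0.72, −0.72, −0.63 and −0.72, with the same culture apart (0.917).

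The clones differed at an adjusted p below 0.05 (edgeR interaction) in 4 genes. The log2 ratio of *Ddx6* was lower in clone 2 (difference −0.93), with −2.0 and −1.79 in clone 1 and −2.83 and −2.76 in clone 2. It was higher in clone 2 for *Icosl* (1.37), with −1.18 and −1.22 against 0.26 and 0.01, and for *Mpzl1* (0.97), a cell surface protein gene, with −0.81 and −1.0 against −0.20 and 0.27. For *Gm23935* (0.70) the values were −7.35 and −7.88 against −7.25 and −6.69, and all of its windows are shared with other annotated genes.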

How the results depend on the processing

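Higher calls (2327) numbered 1378 with 3 CPM required in every library, 1522 with clone 2 only and 5809 by adjusted p alone. Lower calls (3419) numbered 5310 with no filter beyond 1 count, 1857 with 3 CPM in every library, 2159 and 2060 with clone 1 or clone 2 only and 5717 by adjusted p alone. Without the replicate block there were 2321 higher, 3417 lower and 0 clone calls. Clone calls (1) were also 0 with DESeq2, the single-end run or the re-sequencing run, 4 by adjusted p alone, and 0 to 1 with a culture left out. The spread between the 25th and 75th percentiles (3.29-fold) was 6.69 with no filter, 2.46 with 3 CPM in every library, 3.39 with re-sequencing only, 2.59 and 2.52 with clone 1 or 2 only, 3.36 without mitochondrial genes and *Lars2* (chosen after seeing the data), and 3.10 to 3.19 with a culture left out. The long noncoding median (−3.03) was −3.15 with DESeq2, −1.95 with no filter, −1.81 with 3 CPM in every library, −1.90 and −1.85 with clone 1 or 2 only, and −3.16 to −3.0 with a culture left out. The rank correlation with exon number (Spearman) was 0.361 for genes with under 5% shared windows (chosen after seeing the data). *Impact* (0.01) was −0.04 with DESeq2, −0.00 by library size, −0.20 with 3 CPM in every library, −0.04 with re-sequencing, −0.24 and −0.11 with clone 1 or 2 only, −0.03 with under 5% shared windows, and −0.04 to 0.03 with a culture left out. *Sall4* (−0.04) was 0.16 with no filter and 0.15 with re-sequencing. The cause of these changes was not tested. Of 1545 values of named genes under alternatives, 1496 kept direction and call, and of 431 list medians 291 moved by less than 1 SD over cultures. List medians of the pluripotency, YAP and Hippo, G1/S, ribosomal protein and mRNA decay lists and of processed pseudogenes changed sign in 15 of 495 values. The fitted values moved by a median of 0.20 with no filter, −0.21 with 3 CPM in every library and −0.18 with 1 clone. In 3791 tested genes some library had fewer than 20 counts, which limits their precision.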
